A study of Mus musculus with 20 samples.

Results

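Gene expression at P7 was compared between 3 Bai1 tm2b/tm2b and 3 Bai1 tm2b/+ libraries of the apical coil of the mouse cochlea. These 6 of the 20 libraries of the series are replicates 5 to 7 of each genotype, and they were chosen because they are the P7 libraries whose values were deposited as estimated counts. They form the P7 batch with 3 replicates per genotype, and the other P7 batch holds 4 replicates per genotype. The tm2b allele lacks exons 3 and 4 of *Adgrb1*, the gene that encodes BAI1 (brain-specific angiogenesis inhibitor 1), and keeps a lacZ cassette with a splice acceptor. Both genotypes carry it: the Bai1 tm2b/+ libraries, called controls below, are heterozygous and not wild type, and the Bai1 tm2b/tm2b libraries are called mutants, so the comparison is of 2 mutant alleles against 1 at postnatal day 7. The study describes the allele as affecting the N terminal part of the long isoform, with the short isoform still made. The mice were on the C57BL/6N background, both sexes were used, and a library came from the sensory epithelium and spiral ganglion neurons (SGNs) of 4 pooled mice, or 3 to 4 by the supplementary methods. The sources used here do not give the sexes within a pool or whether 2 pools shared a litter, so p values measure the spread between pools. Of the 24411 genes in the table, 16026 had enough counts to be tested.

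BAI1 is an adhesion G-protein-coupled receptor. Its long form has an extracellular part with thrombospondin repeats, and its intracellular part binds scaffold proteins of the post-synaptic density and the ELMO and DOCK proteins that activate the GTPase Rac. In the cochlea, inner hair cells release glutamate onto the terminals of SGNs, where it acts on AMPA receptors built from the GluR subunits encoded by *Gria2*, *Gria3* and *Gria4*. At P7 the mouse cochlea does not yet respond to airborne sound, and the hair cell synapses, the myelin of the SGN fibers and the tectorial membrane are still maturing. A microdissected coil also contains supporting cells, Schwann cells, fibroblasts, blood cells and pieces of the surrounding bone and nerve.

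On the plus strand of mouse chromosome 15 (build GRCm38, mm10), *Adgrb1* (ENSMUSG00000034730.17) spans 74516195 to 74589465. The 2 exons that the tm2b allele lacks are printed here, 5′ to 3′, to show what both genotypes lack on 1 or 2 alleles, with exon numbers from the GENCODE annotation (31 exons). Both lie wholly in the coding sequence, and all letters are in lower case because the whole exon is deleted.
Exon 3, chr15:74538298-74538459: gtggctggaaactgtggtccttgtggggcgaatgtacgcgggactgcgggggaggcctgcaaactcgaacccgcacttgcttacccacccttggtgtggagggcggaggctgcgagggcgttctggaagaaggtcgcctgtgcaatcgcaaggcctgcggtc
Exon 4, chr15:74539203-74539313: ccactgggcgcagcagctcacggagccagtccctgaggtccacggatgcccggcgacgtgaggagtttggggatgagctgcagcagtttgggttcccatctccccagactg
Exon 3 has 162 bases and exon 4 has 111 bases. Together they are 273 of the 6228 bases of this transcript, or 4.38%. Both are present in 3 of the 12 annotated transcripts, and 9 transcripts start after exon 4. The counts sum all transcripts of a gene, so a read from the remaining exons counts for *Adgrb1* in both genotypes, and the loss of the exons was not analysed here.

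The libraries held 31108551 (Bai1 tm2b/tm2b replicate 6) to 58807173 (Bai1 tm2b/+ replicate 6) estimated counts and 17848 to 18186 genes with a count above 0. Throughout, values are CPM (counts scaled to library size, with TMM factors), and they are given in the order of replicates 5, 6 and 7. The pools differed in the genes that mark sex. *Xist*, the RNA that coats the inactive X chromosome of females, was at 413, 237 and 582 CPM in the controls and at 1019, 782 and 0.178 CPM in the mutants, the last from 8 counts. The Y-linked gene *Ddx3y* was at 48.4, 58.2 and 31.7 CPM and at 48.4, 0 and 91.03 CPM, and the other 3 Y-linked genes measured were also listed at 0 counts in Bai1 tm2b/tm2b replicate 6. A count of 0 in that library allows up to 0.0963 CPM, a floor that covers counting error only. So every Bai1 tm2b/+ pool held RNA of both kinds, Bai1 tm2b/tm2b replicate 6 held no detected Y-linked RNA, and replicate 7 held almost no *Xist*.

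Single libraries also stood apart on markers of tissue. Bai1 tm2b/tm2b replicate 5 was highest for red cell precursor genes: *Slc4a1*, the red cell anion exchanger, was at 74.6 CPM there and at 1.29 to 4.06 CPM in the other 5 libraries. In Bai1 tm2b/tm2b replicate 6 the Schwann cell genes were lowest, with *Mbp*, myelin basic protein, at 1998 CPM against 3190.1 to 4606 CPM in the other 5. Bai1 tm2b/+ replicate 6 was highest for SGN genes, with *Nefh*, a neurofilament subunit, at 453 CPM against 126 to 277 CPM in the other 5. On the 500 most variable genes, the first principal component held 37.3% of the variance and the second 32.3%, and neither separated the genotypes (exact 2-sided permutation p = 0.2 and p = 0.9, with 0.1 the smallest p that 3 against 3 libraries allow). The end of the first component toward Bai1 tm2b/+ replicate 6 was led by *Spock3*, *Aldh1a3*, *Calb2*, *Mdga1*, *Nefh* and *Islr2* beside Y-linked genes, and the opposite end by *Xist*, *Slc4a1* and *Sst*. The part that tissue makeup plays in the genotype differences was not tested. With the Y-linked level as a covariate, an alternative added after seeing the data, 631 genes had an unadjusted p under 0.05, against 763 without it, and 0 were called by edgeR in either fit.

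**Figure D1:**
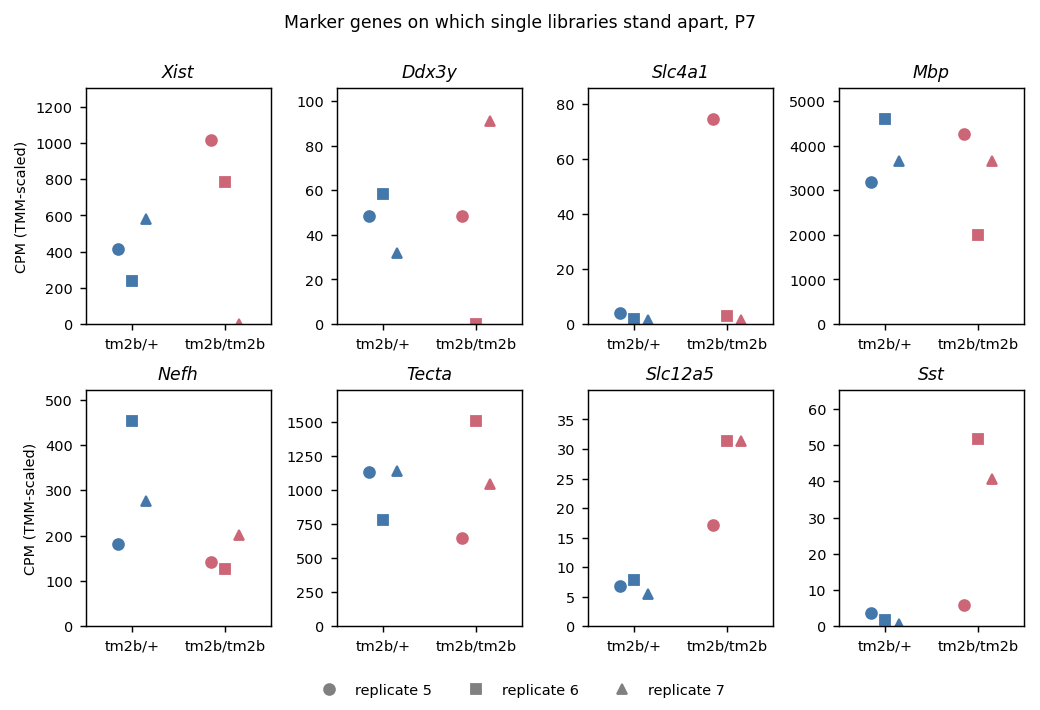
CPM (TMM-scaled, vertical axes from 0) of 8 marker genes in the 3 Bai1 tm2b/+ (blue) and 3 Bai1 tm2b/tm2b (red) libraries, 1 point per library and 1 symbol per replicate number. *Slc4a1* is high in 1 library (74.6 CPM), *Ddx3y* is at 0 in Bai1 tm2b/tm2b replicate 6 and *Xist* near 0 in replicate 7, while *Slc12a5* and *Sst* are higher in all 3 Bai1 tm2b/tm2b libraries.

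*Adgrb1* was lower in every Bai1 tm2b/tm2b library. It was at 35.5, 61.5 and 39.4 CPM in the controls and at 29.6, 23.8 and 34.3 CPM in the mutants (45.5 ± 14.03 against 29.2 ± 5.26 CPM, mean ± SD, n = 3 each). The groups did not overlap, though the lowest control (35.5) and the highest mutant (34.3) nearly met. The log2 fold change was -0.64 (95% interval -1.17 to -0.10). Its unadjusted p of 0.0253 in the edgeR fit across all genes did not pass adjustment (adjusted p = 0.894), and the exact 2-sided permutation p of the 6 values was 0.1, the smallest possible. Without Bai1 tm2b/+ replicate 6, the library richest in SGN genes, the log2 fold change was -0.36.

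The other BAI genes pointed upward in these libraries without passing any threshold. *Adgrb2* was at 70.6, 81.2 and 72.2 CPM and at 77.6, 81.2 and 90.9 CPM, with a log2 fold change of 0.16 (95% interval -0.05 to 0.36). *Adgrb3*, which encodes the third member of the family, was at 7.65, 12.5 and 6.85 CPM and at 9.78, 10.7 and 15.05 CPM, with a log2 fold change of 0.40 (95% interval -0.22 to 1.02). For both genes the libraries of the 2 genotypes overlapped.

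Among the AMPA receptor subunits, *Gria2* was higher in every Bai1 tm2b/tm2b library. It encodes the subunit that makes the receptor impermeable to calcium, and it was at 13.7, 19.04 and 13.8 CPM in the controls and at 31.4, 19.8 and 24.5 CPM in the mutants. The groups did not overlap, though the highest control (19.0) and the lowest mutant (19.8) nearly met. Its log2 fold change was 0.70 (95% interval 0.23 to 1.17, unadjusted p = 0.00953, adjusted p = 0.894 by edgeR and 0.155 by DESeq2). In the other P7 batch, at a minimum mean of 1, it was at 0.08 (SE 0.18) and the genotypes overlapped. *Gria4*, the subunit with fast kinetics, was at 32.1, 56.6 and 39.9 CPM and at 39.97, 45.9 and 59.9 CPM, and *Gria3* was at 29.7, 41.2 and 33.6 CPM and at 37.8, 27.8 and 37.5 CPM, with log2 fold changes of 0.18 (95% interval -0.36 to 0.71) and -0.02 (95% interval -0.40 to 0.36). *Gria1*, which encodes GluR1, had a log2 fold change of 0.31 (95% interval -0.20 to 0.83). The direction of *Gria4* and *Gria3* turned when single libraries were left out.

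**Figure D2:**
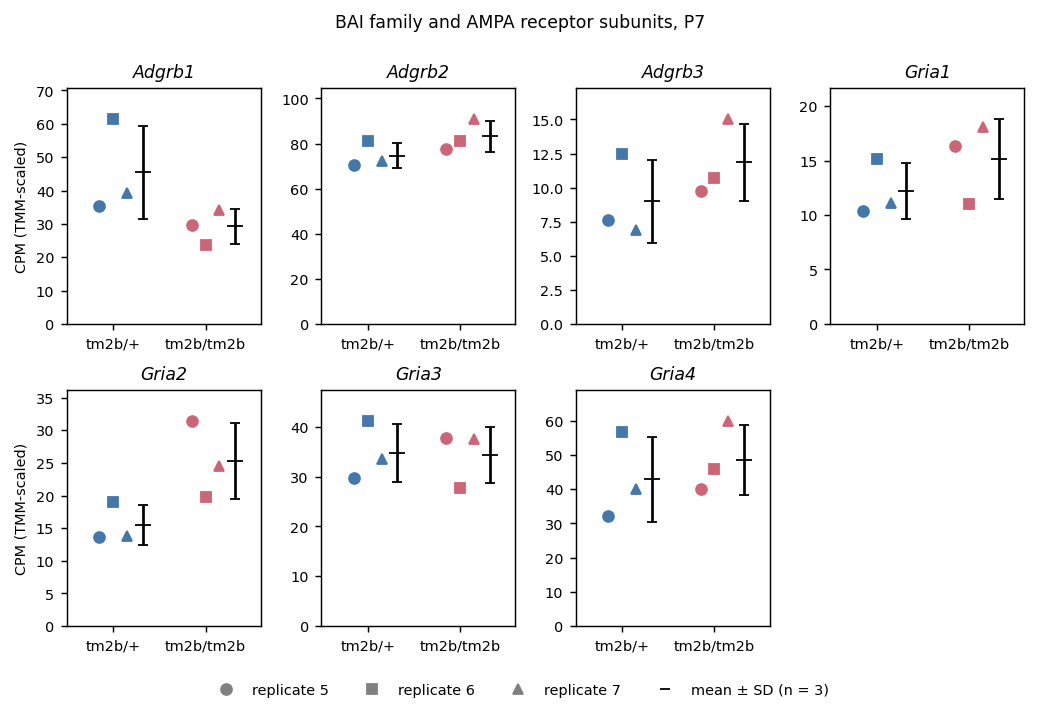
CPM (TMM-scaled, vertical axes from 0) of the 3 BAI genes and 4 AMPA receptor subunit genes in each library, with the mean and SD of the 3 libraries per genotype in black. *Adgrb1* is lower and *Gria2* higher in all 3 Bai1 tm2b/tm2b libraries, and the other 5 genes overlap between genotypes.

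Across all genes, no difference passed the thresholds in the edgeR test. A call needed an adjusted p under 0.05, a log2 fold change beyond 0.5 and a standard error of the log2 fold change under 0.5. These follow the thresholds of the study, whose limit on the log2 standard deviation was read here as one on the standard error. Of 16026 genes tested, 0 (0%) were called, and the smallest adjusted p was 0.573. At an unadjusted p under 0.05 there were 494 genes higher in Bai1 tm2b/tm2b (3.08% of those tested) and 269 lower (1.68%). All 3 Bai1 tm2b/tm2b libraries lay above all 3 Bai1 tm2b/+ libraries for 923 genes (5.76%) and below them for 743 genes (4.64%). Limma-voom also called 0 genes, with 722 at an unadjusted p under 0.05. DESeq2, the tool that the study used, called 44 genes as higher (0.268% of the 16395 genes to which it gave an adjusted p) and 4 as lower (0.0244%), with 905 genes at an unadjusted p under 0.05. All 48 of these genes had groups that did not overlap and an unadjusted edgeR p under 0.05. The study itself reported no genes as changed between the genotypes in either of its P7 runs.

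The number of DESeq2 calls turned on single libraries. It was 159 without Bai1 tm2b/tm2b replicate 5, the library with the red cell precursor genes, and 105 without Bai1 tm2b/+ replicate 5. It was 15 without Bai1 tm2b/+ replicate 7, 23 without Bai1 tm2b/tm2b replicate 6 and 12 without replicate 7 of that genotype. Of the 48 genes, 10 were called with each of the 6 libraries left out in turn, namely *Bzrap1*, *Cbln1*, *Gabra5*, *Lmtk3*, *Mir124a-1hg*, *Nova2*, *Nxph4*, *Scn2a1*, *Slc12a5* and *Trank1*. These 10 were picked out after the values were seen.

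For most genes the data limited how large a difference could be. The 95% interval of the log2 fold change lay within 0.5 of 0 for 9996 of the 16026 genes (62.4%). The median standard error was 0.118, so that an interval of median width reached 0.28 to either side of the estimate, and the biological coefficient of variation between pools was 15.4%. Over all genes the log2 fold change had a median of 0.0028.

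**Figure D3:**
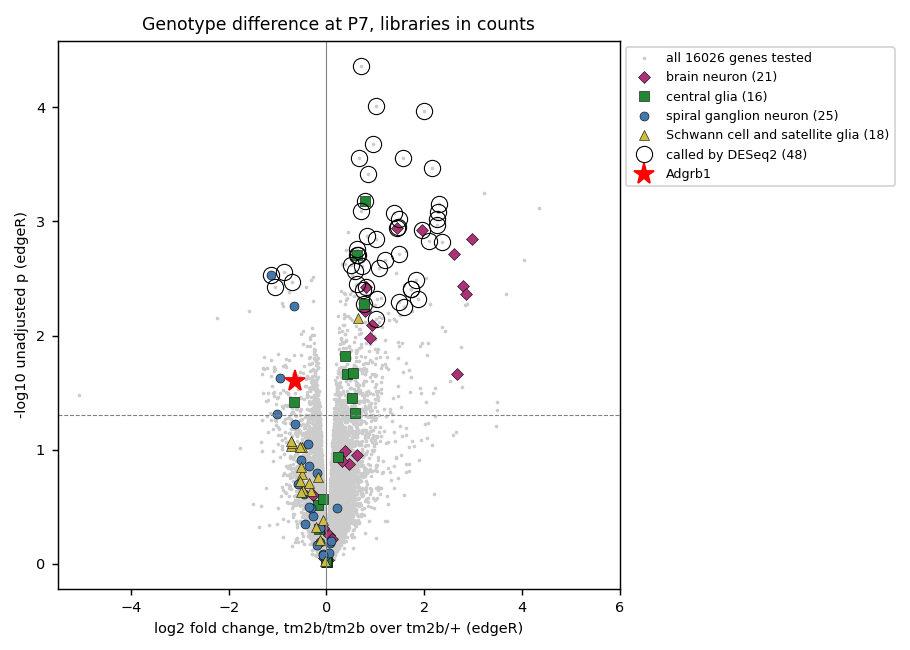
Log2 fold change (Bai1 tm2b/tm2b over Bai1 tm2b/+, horizontal axis) against -log10 of the unadjusted edgeR p (vertical axis) for all 16026 genes tested, with 4 marker lists in color, circles around the 48 genes called by DESeq2 and a star at *Adgrb1*. The dashed line marks an unadjusted p of 0.05. Brain neuron and central glia markers lie mostly to the right, SGN and Schwann cell markers mostly to the left.

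The 3 genes with the smallest p values, *Bzrap1*, *Scn2a1* and *Slc12a5*, were higher in the mutants, and all 3 are known from neurons. *Bzrap1*, whose protein binds RIM at presynaptic release sites, had the smallest p of all genes. It was at 19.4, 18.3 and 16.97 CPM in the controls and at 29.6, 29.5 and 30.2 CPM in the mutants, groups that were tight and well apart, with a log2 fold change of 0.71 (95% interval 0.52 to 0.90, adjusted p = 0.573 by edgeR and 5.55e-09 by DESeq2). *Scn2a1*, a voltage-gated sodium channel of central axons, was at 6.07, 7.86 and 6.14 CPM and at 13.2, 13.5 and 13.95 CPM, a log2 fold change of 1.02 (95% interval 0.71 to 1.33). *Slc12a5*, the chloride extruder KCC2 of mature central neurons, was at 6.75, 7.88 and 5.36 CPM and at 17.2, 31.3 and 31.3 CPM, a log2 fold change of 1.99 (95% interval 1.38 to 2.61). *Trank1* showed the same order of libraries, at 4.93, 5.13 and 2.67 CPM and at 11.6, 23.1 and 21.98 CPM (log2 fold change 2.15, 95% interval 1.36 to 2.94). In both of these genes Bai1 tm2b/tm2b replicate 5 was the lowest of the mutants. It was still above every control, which the choice of these genes required.

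Among the named genes on the higher side were also a splicing regulator, a kinase, a transporter, a channel and a protease. *Nova2*, a splicing regulator of neurons, was at 7.403, 8.03 and 6.31 CPM and at 12.2, 15.1 and 15.02 CPM (log2 fold change 0.96). *Lmtk3*, a neuronal kinase, was at 36.7, 32.4 and 35.4 CPM and at 63.2, 53.7 and 50.1 CPM (log2 fold change 0.68). The proline transporter gene *Slc6a7* was below 1 CPM in the controls and between 2.15 and 2.61 CPM in the mutants (log2 fold change 1.56), and the potassium channel gene *Kcnh3* was at 0.626, 0.487 and 0.405 CPM and at 1.300, 2.82 and 3.32 CPM (log2 fold change 2.30). *Capn11*, a calpain protease gene, was at 0.299, 0.817 and 0.595 CPM and at 3.71, 1.86 and 2.96 CPM (log2 fold change 2.29). Of the exon bases of *Nova2*, 31.7% are shared with *Gm26821*, which is read from the other strand, and whether the counting used strand is not given in the sources used here.

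Among the genes with the largest fold changes called by DESeq2 were 6 known from neurons of the brain, most of them at a few CPM or less in the controls. *Lamp5*, which marks a class of cortical interneurons, was at 1.69, 1.27 and 0.762 CPM in the controls and at 2.87, 6.97 and 9.38 CPM in the mutants (log2 fold change 2.37). *Nxph4*, a neurexin ligand, was at 2.07, 2.400 and 1.404 CPM and at 4.33, 11.1 and 13.04 CPM (log2 fold change 2.27). The GABA-A receptor subunit gene *Gabra5* was at 1.82, 2.16 and 1.33 CPM and at 3.79, 9.69 and 12.01 CPM (log2 fold change 2.26), and *Gabrd*, another subunit, was at 0.844, 0.748 and 0.452 CPM and at 1.14, 2.73 and 3.63 CPM (log2 fold change 1.87). *Cbln1*, the synapse organizer secreted by cerebellar granule cells, was at 7.16, 8.504 and 3.81 CPM and at 14.5, 29.4 and 32.3 CPM (log2 fold change 1.96). The transcriptional regulator gene *Prdm8* was at 0.408, 0.539 and 0.333 CPM and at 1.002, 2.697 and 1.89 CPM (log2 fold change 2.10), with 29.1% of its exon bases shared with a gene on the other strand. In all 6 of these genes replicates 6 and 7 of Bai1 tm2b/tm2b were well above replicate 5. Of all 44 genes called as higher, 32 had replicate 5 as the lowest mutant library and 28 had replicate 7 as the highest, and 15 had a mean under 5 CPM.

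*Sst*, which encodes the interneuron peptide somatostatin, had the same pattern with a wider spread. It was at 3.51, 1.83 and 0.714 CPM in the controls and at 5.85, 51.7 and 40.6 CPM in the mutants, where replicate 5 was close to the controls and replicates 6 and 7 were far above them (log2 fold change 4.04). Its edgeR adjusted p was 0.894. In DESeq2 its adjusted p was 0.0184, and its standard error of 0.99 was above the limit of 0.5. *Atoh7*, a neuronal transcription factor of the retina and the cochlear nucleus, was at 0.381, 0.348 and 0.119 CPM and at 0.487, 5.87 and 4.703 CPM, and *Klhl1* at 1.31, 1.18 and 0.357 CPM and at 1.84, 10.3 and 8.92 CPM. The GABA transporter gene *Slc6a11* was at 45.4, 49.6 and 25.6 CPM and at 71.8, 108 and 184 CPM.

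Glial genes of the central nervous system were also among the genes on the higher side. *Aldh1l1*, an enzyme used to mark astrocytes, was at 24.2, 28.1 and 20.4 CPM and at 38.7, 39.5 and 47.8 CPM (log2 fold change 0.79, 95% interval 0.47 to 1.12, adjusted p = 0.894 by edgeR and 0.00053 by DESeq2). *Slc4a4*, a sodium bicarbonate cotransporter of astrocytes and epithelia, was at 70.7, 67.9 and 57.3 CPM and at 96.7, 97.04 and 125 CPM (log2 fold change 0.70). *Btbd17* was at 6.45, 6.05 and 5.45 CPM and at 9.37, 11.1 and 11.9 CPM (log2 fold change 0.85). All 3 were among the 12 genes named on this side, which were picked for groups that did not overlap.

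Of 16 central glia genes, all tested, 8 were higher and 1 lower at an unadjusted p under 0.05, against 3.08% and 1.68% of all genes. DESeq2 called 3 as higher (*Aldh1l1*, *Slc1a2* and *Olig1*), against 0.268% of all genes. The median log2 fold change of the list was 0.31, against 0.0028 for all genes. *Aqp4*, the water channel of astrocytes and some supporting cells, was at 200.1, 222 and 177 CPM and at 243, 238 and 296 CPM (log2 fold change 0.38). The 1 gene on the lower side, *Gjb1*, is a connexin of myelinating cells that Schwann cells share (log2 fold change -0.66). The summed level of the list overlapped between genotypes, with 1201 to 1450 CPM in the controls and 1356 to 1721 CPM in the mutants.

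Of 23 brain neuron genes, 21 were tested, and 11 of them were higher and 0 lower at an unadjusted p under 0.05, against 3.08% and 1.68% of all genes. The same number had all mutant libraries above all controls (5.76% of all genes), 3 were called as higher by DESeq2 (*Pax6*, *Cbln1* and *Zic1*, against 0.268% of all genes), and the median log2 fold change was 0.79. A gene had to reach the count minimum in 3 libraries to be tested, so members that did so in the mutants alone entered through that group, and these counts and the median are given as a description. The 7 members that were high enough to be measured in both P7 batches had a median of 0.06 here. *Pax6*, a transcription factor of central progenitors and granule cells, was at 1.58, 2.59 and 1.45 CPM and at 4.06, 5.49 and 5.93 CPM (log2 fold change 1.45), and *Zic1*, a factor of the dorsal neural tube and the meninges, was at 34.05, 25.2 and 23.1 CPM and at 53.7, 53.1 and 37.1 CPM (log2 fold change 0.81). The cortical factor genes *Neurod2* and *Neurod6*, picked after their values were seen, were at a mean of 0.602 and 0.2395 CPM in the controls and of 4.85 and 1.699 CPM in the mutants. Other members, such as *Zic2* at a mean of 128 CPM and 133 CPM, are also expressed in tissue around the inner ear and overlapped between genotypes. The summed level of the list was 420 to 495 CPM in the controls and 494 to 586 CPM in the mutants. The part that the brain neuron and central glia markers play in the other differences was not tested.

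The genes with the smallest p values on the lower side included *Pou4f1* and *Lypd1* of the SGN list. *Pou4f1*, a transcription factor of sensory neurons that marks a subtype of type I SGNs, was at 6.83, 12.1 and 7.07 CPM in the controls and at 4.68, 3.53 and 3.66 CPM in the mutants (log2 fold change -1.13, 95% interval -1.74 to -0.53, adjusted p = 0.894 by edgeR and 0.0162 by DESeq2). *Sncg*, the gene of gamma-synuclein of peripheral sensory neurons, was at 39.5, 62.9 and 41.2 CPM and at 29.5, 22.6 and 26.7 CPM (log2 fold change -0.87, 95% interval -1.32 to -0.41). Both genes were picked for groups that did not overlap, and Bai1 tm2b/+ replicate 6 was the highest library in each. *Nos1*, the neuronal nitric oxide synthase, was at 20.1, 31.6 and 27.3 CPM and at 16.4, 15.1 and 17.1 CPM (log2 fold change -0.70), and *Sntg2*, a gene of the syntrophin family, was at 3.32, 4.695 and 3.26 CPM and at 2.25, 1.44 and 1.76 CPM (log2 fold change -1.05). These were the 4 genes that DESeq2 called as lower.

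Another 2 neuronal genes on this side missed the DESeq2 threshold. *Lypd1*, another gene of SGN subtypes, was at 47.6, 75.9 and 60.8 CPM and at 35.04, 37.3 and 43.5 CPM (log2 fold change -0.67, DESeq2 adjusted p = 0.0678). It shares 17.1% of its exon bases with *Gpr39* on the other strand. *Rims3*, a presynaptic active zone gene, was at 6.29, 11.1 and 7.71 CPM and at 3.95, 4.65 and 4.88 CPM (log2 fold change -0.90, DESeq2 adjusted p = 0.0673). The groups of both did not overlap.

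The SGN list as a whole leaned to the lower side. Of its 25 genes, all tested, 21 had a log2 fold change below 0 and 4 were lower at an unadjusted p under 0.05, against 1.68% of all genes, while 0 were higher. The median was -0.31, and it ran from -0.51 without Bai1 tm2b/+ replicate 5 to -0.05 without Bai1 tm2b/+ replicate 6. The summed level was at 2489, 4506 and 3019 CPM in the controls and at 2122, 2669 and 3094 CPM in the mutants, so the groups overlapped and replicate 6 of the controls stood out. *Nefh* was at 180.4, 453 and 277 CPM and at 142, 126 and 202 CPM (log2 fold change -0.95, 95% interval -1.73 to -0.17), and *Calb2*, the calcium-binding protein calretinin of type I SGNs, was at 133, 373 and 293 CPM and at 80.5, 119 and 196 CPM (log2 fold change -1.01, 95% interval -2.02 to -0.01, and -0.69 without Bai1 tm2b/+ replicate 6). The other neurofilament genes had log2 fold changes of -0.53 (*Nefl*) and -0.31 (*Nefm*). These 2 genes lie on opposite strands and share 32.8% (*Nefl*) and 19.2% (*Nefm*) of their exon bases with each other. Without Bai1 tm2b/+ replicate 6, *Nefh* was at -0.54, *Nefl* at -0.081 and *Nefm* at 0.14. In pools of whole tissue, fewer cells of a type and less RNA per cell cannot be told apart. *Adgrb1* was also highest in Bai1 tm2b/+ replicate 6.

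**Figure D4:**
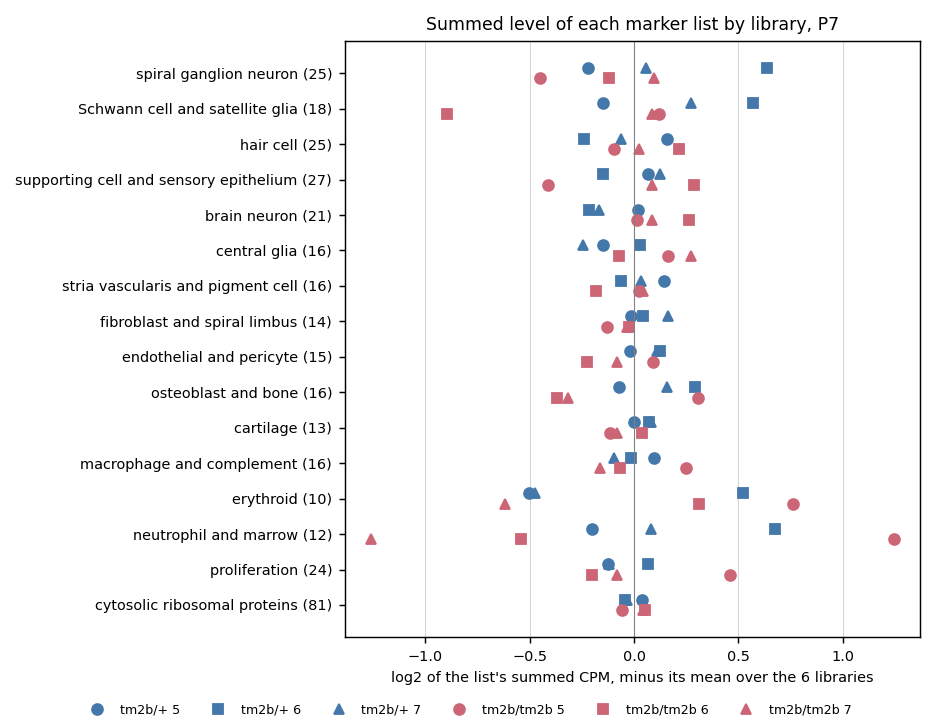
Summed CPM of each marker list in each library, as log2 minus the mean of the 6 libraries (horizontal axis), with the number of genes tested in brackets, controls in blue and mutants in red. SGN genes are highest in Bai1 tm2b/+ replicate 6, Schwann cell genes lowest in Bai1 tm2b/tm2b replicate 6 and neutrophil and marrow genes highest in Bai1 tm2b/tm2b replicate 5, while ribosomal protein genes are level.

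Most genes that act beside the AMPA receptor at the synapse could not be bounded within 0.5 of 0. Of 17 genes for auxiliary subunits and other partners of AMPA receptors, 3 were bounded, against 62.4% of all genes. At an unadjusted p under 0.05, 2 of them were higher and 0 lower, against 3.08% and 1.68% of all genes. Their median log2 fold change was 0.06. The lowest p belonged to *Shisa7*, an auxiliary subunit, at 10.97, 10.3 and 10.4 CPM and at 14.1, 14.2 and 12.5 CPM (log2 fold change 0.37, 95% interval 0.14 to 0.60). *Shisa8* was at 10.2, 13.1 and 4.09 CPM and at 8.18, 4.53 and 3.28 CPM, a wide spread in both groups (log2 fold change -0.78, 95% interval -1.89 to 0.34, and -0.42 without Bai1 tm2b/+ replicate 6).

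Of 13 NMDA, kainate and delta receptor genes, 2 were bounded within 0.5 of 0, against 62.4% of all genes, and the median was 0.13. At an unadjusted p under 0.05, 1 was higher and 0 lower, against 3.08% and 1.68% of all genes. That gene was *Grin2b*, an NMDA receptor subunit of young central neurons, at 0.245, 0.174 and 0.309 CPM and at 0.731, 0.642 and 0.869 CPM (log2 fold change 1.64, 95% interval 0.83 to 2.44). *Grin1*, the obligatory NMDA receptor subunit, was at 24.4, 61.2 and 37.3 CPM and at 26.3, 32.9 and 44.4 CPM (log2 fold change -0.25), and its direction turned without Bai1 tm2b/+ replicate 6. Of its exon bases, 13.5% are shared with *Grin1os* on the other strand.

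Of 22 post-synaptic scaffold genes, 2 were higher and 0 lower at an unadjusted p under 0.05, and 9 were bounded within 0.5 of 0. Over all genes these shares were 3.08%, 1.68% and 62.4%. The median of the list was 0.13. *Lrrtm3*, a synaptic adhesion gene, was at 4.87, 15.1 and 9.74 CPM and at 4.197, 5.23 and 7.58 CPM, with the groups overlapping (log2 fold change -0.80, and -0.36 without Bai1 tm2b/+ replicate 6).

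Of 24 genes of the BAI family with its ligands and signaling partners, 23 were tested, and 14 had an interval within 0.5 of 0, close to the 62.4% of all genes. At an unadjusted p under 0.05, 1 was higher and 2 were lower, against 3.08% and 1.68% of all genes, and the median was 0.04. *Dock4*, one of the DOCK activators of Rac, was at 32.4, 27.8 and 28.3 CPM and at 39.9, 36.5 and 34.9 CPM (log2 fold change 0.33, 95% interval 0.12 to 0.55). The 2 on the lower side were *Adgrb1* itself and *C1ql3*, a secreted ligand of BAI3, which was named after its values were seen and overlapped between genotypes (log2 fold change -0.89, and -0.57 without Bai1 tm2b/+ replicate 6). Of the exon bases of *C1ql3*, 64.2% are shared with *Gm37811* and *Gm37824* on the other strand.

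No hair cell gene passed even the unadjusted threshold. Of 25 genes, all tested, 23 had a log2 fold change above 0, the median was 0.17 and 0 had an unadjusted p under 0.05. The median was 0.02 without Bai1 tm2b/+ replicate 6, and in the other P7 batch 10 of the 19 members measured were above 0. *Otof*, the calcium sensor of inner hair cell exocytosis, was at 267, 157 and 210.1 CPM and at 194, 301 and 222 CPM, with overlapping groups and a log2 fold change of 0.18 that turned without Bai1 tm2b/tm2b replicate 6. In the other P7 batch it was at 0.53 (SE 0.15, limma adjusted p = 0.0338). Every mutant there was above every control, as for 1007 of 11395 genes. At P22 its log2 fold change was 0.54 (edgeR adjusted p = 0.0121). *Myo6*, a motor of the hair bundle and the synapse, was at 341, 266 and 307 CPM and at 299, 357 and 332 CPM (log2 fold change 0.11, 95% interval -0.15 to 0.38). *Pvalb*, which SGNs also express, was one of the 2 members below 0 (log2 fold change -0.49, and -0.21 without Bai1 tm2b/+ replicate 6).

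Supporting cell genes were level in the median and spread between pools. Of 27 genes 1 was higher at an unadjusted p under 0.05, against 3.08% of all genes. The median was 0.03, and 14 were bounded within 0.5, against 62.4% of all genes. *Tecta* and *Tectb*, which encode the tectorins of the tectorial membrane, were at 1132, 782 and 1142 CPM and 6243, 4993 and 6511 CPM in the controls and at 647, 1508 and 1044 CPM and 4161, 8017 and 6551 CPM in the mutants. In the other P7 batch, at a minimum mean of 1, *Tecta* was at a log2 fold change of 1.19 (SE 0.29) with every mutant above every control. *Tectb* was at 0.28 there (SE 0.21), and the genotypes overlapped. Here mutant replicate 5 was the lowest and mutant replicate 6 the highest library for both. The gene with the lowest p was *Hes5*, a Notch target of supporting cells, at 5.12, 3.57 and 4.43 CPM and at 5.01, 6.68 and 6.999 CPM (log2 fold change 0.52), where 31.8% of the exon bases are shared with *Gm20421* on the other strand.

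Schwann cell and satellite glia genes were lower in the median, with a wide spread between pools. Of 18 genes, 17 were below 0 and the median was -0.49, but 0 were lower at an unadjusted p under 0.05. The median was -0.17 without Bai1 tm2b/tm2b replicate 6. The summed level was at 12225, 20151 and 16417 CPM in the controls and at 14719, 7296 and 14382 CPM in the mutants. *Gldn*, which helps to assemble nodes of Ranvier, was at 50.5, 104 and 89.2 CPM and at 59.9, 26.7 and 60.8 CPM (log2 fold change -0.72, and -0.43 without Bai1 tm2b/tm2b replicate 6). *Mbp* was at 3190.1, 4606 and 3660.3 CPM and at 4265, 1998 and 3659.5 CPM, and its log2 fold change of -0.21 turned without Bai1 tm2b/tm2b replicate 6. The 1 member above 0 was *Fabp7*, a lipid-binding protein of immature Schwann cells and of radial glia, at 231, 262 and 192 CPM and at 282, 362 and 428 CPM with no overlap (log2 fold change 0.65, 95% interval 0.24 to 1.05).

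Genes of the lateral wall and connective tissue were mostly on the lower side. Of 17 genes of the stria vascularis and pigment cells 16 were tested, 3 were lower and 0 higher at an unadjusted p under 0.05, and 5 had all mutants below all controls, against 1.68%, 3.08% and 4.64% of all genes. *Kcnq1*, the potassium channel that secretes potassium into endolymph, was at 15.2, 9.83 and 13.9 CPM and at 7.64, 6.65 and 8.51 CPM (log2 fold change -0.77, 95% interval -1.20 to -0.33, DESeq2 adjusted p = 0.0546). *Cldn11*, the tight junction gene of strial basal cells and myelin, was at 306, 291 and 291 CPM and at 282, 219 and 247 CPM (log2 fold change -0.25). The median of this list was -0.46, and -0.23 without Bai1 tm2b/+ replicate 5, the library highest for these genes.

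Of 14 fibroblast and spiral limbus genes, 13 were below 0, 3 were lower at an unadjusted p under 0.05, against 1.68% of all genes, and the median was -0.18. *Dcn*, the matrix proteoglycan decorin, was at 744, 776 and 753 CPM and at 666, 569 and 606 CPM (log2 fold change -0.30, 95% interval -0.50 to -0.10). Outside the list, the matrix genes *Fbln5* at 61.2, 65.4 and 60.98 CPM and at 53.2, 49.2 and 51.7 CPM and *Islr* at 231, 245 and 241 CPM and at 207, 199 and 189 CPM were tight within each genotype, with log2 fold changes of -0.28 and -0.27. *Efnb1*, an ephrin ligand, was at 95.3, 105 and 109.8 CPM and at 86.8, 81.2 and 80.6 CPM (log2 fold change -0.32, 95% interval -0.49 to -0.15), and *Synm*, an intermediate filament gene, was at 55.5, 60.9 and 52.9 CPM and at 44.2, 45.5 and 37.1 CPM (log2 fold change -0.42, 95% interval -0.65 to -0.18). *Cytl1*, a secreted protein of cartilage, was at 19.03, 13.5 and 11.9 CPM and at 8.96, 9.08 and 6.04 CPM (log2 fold change -0.89). In all 6 genes every mutant library was below every control, and in 5 of them the log2 fold change was under 0.5 in size. All but *Dcn* were picked for groups that did not overlap, so that order was fixed by the choice.

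Markers of cells from around the cochlea varied between pools of the same genotype. The red cell genes summed to 662 to 1725 CPM and were highest in Bai1 tm2b/tm2b replicate 5, followed by Bai1 tm2b/+ replicate 6. Their median log2 fold change of 0.68 was 0.003 without Bai1 tm2b/tm2b replicate 5. Of 16 neutrophil and marrow genes 12 were tested, and their sum was 235 CPM in Bai1 tm2b/tm2b replicate 5 and 41.3 to 158 CPM in the other 5 libraries. Their median log2 fold change of 1.12 became -0.56 without that library. *S100a8*, a calcium-binding protein gene of neutrophils, was at 15.6 CPM in it and at 0.758 to 1.77 CPM in the others. Of 16 bone genes 12 were below 0, with a median of -0.16 that was 0.06 without Bai1 tm2b/tm2b replicate 6, and 1 was lower at an unadjusted p under 0.05, *Spp1* (osteopontin, log2 fold change -0.72, and -0.37 without Bai1 tm2b/+ replicate 6), which overlapped between genotypes. Cartilage genes had a median of -0.15, with 1 of 13 tested lower at an unadjusted p under 0.05 (*Hapln1*, log2 fold change -0.88, and -0.41 without Bai1 tm2b/+ replicate 6), and endothelial and pericyte genes a median of -0.17 with 0 of 15 (-0.07 without Bai1 tm2b/tm2b replicate 6). Of 13 skeletal muscle genes tested, 0 were higher and 1 was lower at that threshold, with a median of -0.04. Over all genes, 3.08% were higher and 1.68% lower.

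Over all genes tested, 62.4% were bounded within 0.5 of 0. Of 81 cytosolic ribosomal protein genes tested, 79 had an interval within 0.5 of 0, with a median of 0.03 and a range of -0.21 to 0.21. The lowest p was that of *Rpl38*, at 133, 125 and 137 CPM and at 139, 155 and 163 CPM (log2 fold change 0.21). Of 16 macrophage and complement genes 12 were bounded, with a median of 0.02 and 0 at an unadjusted p under 0.05. Of 14 heat shock and stress genes 9 were bounded, a share close to that over all genes, with a median of -0.07 and 0 at an unadjusted p under 0.05. Of 16 activity-induced genes 10 were bounded, also close to the share over all genes, and 1 was lower at an unadjusted p under 0.05, *Jun*, an immediate early transcription factor gene, at 72.4, 77.8 and 76.2 CPM and at 62.5, 63.7 and 69.4 CPM (log2 fold change -0.21, 95% interval -0.37 to -0.05). Of 24 proliferation genes 9 were bounded and 20 were above 0, with a median of 0.08 that was -0.11 without Bai1 tm2b/tm2b replicate 5. Of them 0 reached an unadjusted p under 0.05, and their sum was highest in Bai1 tm2b/tm2b replicate 5 (511 CPM against 323 to 389 CPM). Of 87 potassium and HCN channel genes tested, 14 were bounded, and 8 were higher and 5 lower at an unadjusted p under 0.05, against 3.08% and 1.68% of all genes. Of these genes 1 was called as higher by DESeq2 (*Kcnh3*), against 0.268% of all genes, and the median was 0.02.

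Genes around the targeted gene were bounded within 0.5 of 0 about as often as all genes. Within 2 Mb of *Adgrb1* on chromosome 15, 87 genes were in the table and 62 were tested. Of these, 42 were bounded, close to the 62.4% of all genes. At an unadjusted p under 0.05, 1 was higher and 3 were lower, *Adgrb1* included, against 3.08% and 1.68% of all genes. The 1 higher gene was *Mafa*, a transcription factor gene, at 0.544, 0.783 and 0.571 CPM and at 0.677, 1.77 and 1.72 CPM with overlapping groups (log2 fold change 1.12). The median of the 62 genes was -0.02.

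The other P7 libraries, 4 per genotype, did not enter the edgeR and DESeq2 fits above and give an independent measure of the same genes. Their values behave as TPM rounded to whole numbers, so genes with a mean under 5 in either batch were left out, and 11395 genes could be compared. The difference between the genotype effects of the batches was tested for each of these genes with the interaction term of a limma fit: 0 genes had an adjusted p under 0.05 (smallest 0.0565), and 2021 had an unadjusted p under 0.05. *Adgrb1* had a log2 fold change of 0.01 in the other batch (SE 0.17), and the difference between the batches was -0.61 (adjusted p = 0.252). For this gene the units are not a like measure, since TPM is also scaled by transcript length and the allele affects the long isoform. The part that the unit plays was not tested. *Adgrb2*, at 0.16 here, was at 0.27 in the other batch (SE 0.07, limma adjusted p = 0.0327). Every Bai1 tm2b/tm2b library there was above every Bai1 tm2b/+ library for *Adgrb2*, as for 1007 of the 11395 genes compared. An adjusted p under 0.05 there was not particular to the BAI family. *Col3a1* and *Trem2*, for example, also had one (limma adjusted p = 0.0368 and 0.0414).

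Of the 44 genes that DESeq2 called as higher, only 11 were high enough in the other batch to be measured. Of these 2 were also above 0 there, and their median was -0.17, against 0.01 for all 11395 genes. With the minimum lowered to a mean of 1, 8 of 33 were above 0 and the median was -0.14. *Aldh1l1* was at a log2 fold change of -0.24 (SE 0.22), *Slc4a4* at 0.0039 (SE 0.22), *Cbln1* at -0.22 (SE 0.53) and *Zic1* at 0.0062 (SE 0.30). The central glia list, with a median of 0.31 here, had a median of -0.31 there, with 1 of 14 genes above 0. The SGN list, with a median of -0.24 here for the 22 genes in both, had a median of 0.22 there with 20 of 22 above 0. Ribosomal protein genes, level here, had a median of -0.27 in the other batch with 1 of 81 above 0. The 9 stria vascularis and pigment cell genes measured in both pointed the same way, with medians of -0.25 here and -0.26 there and 2 above 0 there. The 7 brain neuron genes measured in both had medians of 0.06 here and 0.07 there, with 6 above 0 there. They do not stand for the list, whose median here was 0.79 over all members tested. Of its 3 members called by DESeq2, *Cbln1* and *Zic1* had the values above. *Pax6*, at a minimum mean of 1, was at -0.11 there (SE 0.23). With the minimum lowered to a mean of 1, *Shisa7* was higher in every Bai1 tm2b/tm2b library there (log2 fold change 0.33, SE 0.08).

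On the lower side, 9 of the 12 named genes could be measured in the other batch and 2 of them were also below 0 there (*Kcnq1* and *Cytl1*). *Sncg* had a log2 fold change of 0.02 (SE 0.15) and *Lypd1* of 0.13 (SE 0.12). *Fbln5*, *Synm* and *Rims3* were higher in every Bai1 tm2b/tm2b library of that batch, the opposite of their direction here. With the minimum lowered to a mean of 1, all 4 genes that DESeq2 called as lower could be measured, and 3 of them were above 0 there, with a median of 0.38. Of these, *Pou4f1* was higher in every Bai1 tm2b/tm2b library of that batch (log2 fold change 0.73, SE 0.18).

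**Figure D5:**
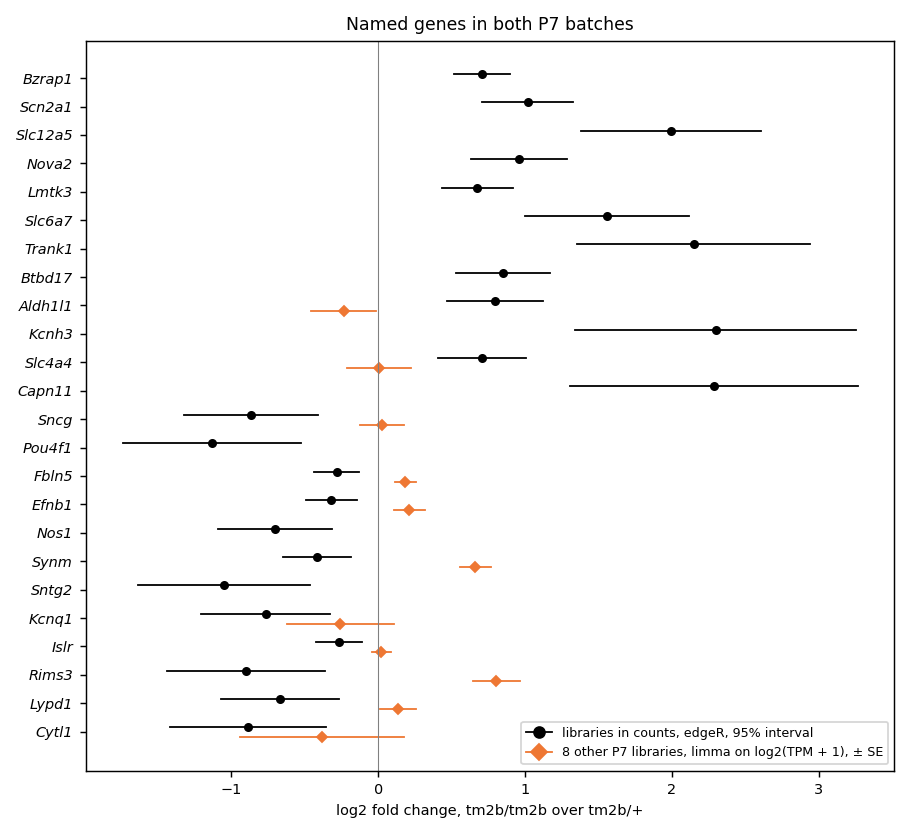
Log2 fold change (Bai1 tm2b/tm2b over Bai1 tm2b/+, horizontal axis) of the 12 named genes per direction in the libraries in counts (black, 95% interval) and, for the genes with a mean of at least 5 there, in the other P7 batch (orange, ± SE). The orange points lie near 0 or on the other side of it for most genes, and for *Synm* and *Rims3* well above 0.

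At P22, 3 libraries per genotype were fitted in the same way, and their values are set beside those of P7 without a test between the ages. *Adgrb1* was at 139, 137 and 151 CPM in the controls and at 93.3, 90.8 and 95.8 CPM in the mutants, 2 groups far apart, with a log2 fold change of -0.61 (adjusted p = 0.000602). *Gria2* was lower there, at 32.01, 27.98 and 31.01 CPM and at 24.3, 25.9 and 23.9 CPM (log2 fold change -0.30, edgeR adjusted p = 0.0329). *Gria3* and *Gria4* were also lower, at log2 fold changes of -0.36 and -0.26 (edgeR adjusted p = 0.0167 and 0.0352). *Gria1* was at 0.62 (edgeR adjusted p = 0.0832). The study, which tested at a log2 fold change of 0.5, reported none of these 4 genes as significantly different. *Bzrap1* was lower at P22, at 69.4, 63.3 and 69.4 CPM and at 58.8, 49.2 and 56.5 CPM (log2 fold change -0.30). *Slc12a5* had a log2 fold change of -0.02 at P22 and *Pou4f1* of 0.00044. *Sncg*, *Nefh* and *Calb2* had log2 fold changes of -0.41, -0.52 and -0.54. Of the 44 genes that DESeq2 called as higher at P7, 40 were tested at P22 and 26 were above 0, with a median of 0.29, against 7942 of 15215 and 0.01 for all genes tested at both ages.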

How the data were processed

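Reads were obtained by the study from poly A-selected RNA (NovaSeq, paired-end) and processed with an nf-core RNA pipeline. Per the labels, the tools named are STAR, Salmon and DESeq2 and the build is mm10. The pipeline version, the annotation and the use of strand are not given in the sources used here. For the 6 libraries compared, the authors deposited estimated counts per gene, neither normalized nor whole. The deposited values of the other P7 libraries, in the same table, are a score: whole numbers with nearly the same sum in every library, as TPM rounded by the authors would have. They keep no depth, so no count model was applied to them.

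The estimated counts were rounded and tested with the edgeR (version 4.0.16, R 4.3.3) quasi-likelihood test after filterByExpr and TMM scaling, without covariates, with Benjamini-Hochberg adjustment over all 16026 genes tested. DESeq2 (1.42.0) and limma-voom (limma 3.58.1) were alternatives, and the difference between the P7 batches was the batch by genotype term of a limma fit of log2(value + 1), on CPM and on rounded TPM divided by TMM factors, leaving out genes whose mean was under 5 in either batch. Fold changes on that scale are understated for low genes. P22 counts were tested with edgeR in the same way. The edgeR test, run on simulated data from the 6 libraries, recovered 71% of 100 genes changed by a log2 fold change of 1 and 95% of 100 changed by 2, and called 13 unchanged genes among the 16026 simulated. On the same data DESeq2 recovered 79% and 97% and called 60 unchanged genes. Both were scored on an adjusted p under 0.05 alone, without the limits on fold change and standard error. The simulated counts varied independently from gene to gene and held no differences in sex or tissue between pools. These shares therefore do not give the power of the tests on the real libraries. Exon sequences were read from GRCm38 with the GENCODE annotation.

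Named genes were *Adgrb1* to *Adgrb3* and the 4 AMPA receptor subunit genes, in each direction the 12 genes with the smallest p among those with a mean of at least 1 CPM and no overlap between genotypes, the 10 largest DESeq2 calls in each direction, the lowest p in each direction and the 2 most abundant genes of each list, the 10 genes at each end of the first 2 principal components, and the 10 most abundant genes. Of these, some are left out for length and 2 are not reported here. The comparison, the gene lists and the tests were chosen with earlier results of these data known. Alternatives were another scaling, filter, tool or rounding, a replicate block, and each library left out. The 13 mitochondrially encoded genes listed were not analysed here, and 27 symbols that look like dates were kept as they are.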

Additional observations from a re-analysis of the deposited data

Results flagged for a closer look

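The genotype difference of 3 named genes with a mean of at least 5 in both P7 batches ran in opposite directions, with every Bai1 tm2b/tm2b library below every Bai1 tm2b/+ library here and above every one of them in the other batch. *Fbln5*, which encodes an elastic fiber protein, was at 61.2, 65.4 and 61.0 CPM against 53.2, 49.2 and 51.7 CPM here. In the other batch it was at 19.8, 21.2, 17.2 and 20.9 rounded TPM (TMM-scaled) in Bai1 tm2b/+ and at 21.4, 24.8, 22.6 and 21.3 in Bai1 tm2b/tm2b. The log2 fold changes differed by -0.47 (limma interaction, adjusted p = 0.187).

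*Synm*, an intermediate filament gene, was at 8.91, 11.1, 8.60 and 7.68 rounded TPM in the Bai1 tm2b/+ libraries of the other batch and at 12.7, 16.2, 15.7 and 14.9 in Bai1 tm2b/tm2b. The log2 fold changes differed by -1.08 (adjusted p = 0.0565). *Rims3*, a presynaptic active zone gene, was at 14.8, 15.1, 10.8 and 10.98 there against 18.5, 25.8, 23.6 and 25.1, and the log2 fold changes differed by -1.55 (adjusted p = 0.0688). *Pou4f1*, which falls under that mean, showed the same at a minimum of 1. It was at 2.97, 4.03, 2.15 and 2.195 rounded TPM in the Bai1 tm2b/+ libraries of the other batch and at 4.87, 5.73, 4.92 and 5.57 in Bai1 tm2b/tm2b, and the log2 fold changes differed by -1.67 (limma interaction over 14227 genes, adjusted p = 0.086). None of these differences passed adjustment over all genes compared. The batches were deposited in different units, so the batch and the unit cannot be told apart. Groups of 3 libraries were too small for an outlier test.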

How the results depend on the processing

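The edgeR count of 0 called genes held under each alternative scaling, filter and rounding, with a replicate block, with limma-voom, with an adjusted p under 0.05 as the only threshold, and with each library left out. DESeq2 called 48. The count of genes at an unadjusted p under 0.05 was 763, ran from 349 (without Bai1 tm2b/+ replicate 7) to 1291 (without Bai1 tm2b/tm2b replicate 5) with libraries left out (482 without Bai1 tm2b/+ replicate 6), and was 631 to 905 under the other alternatives. The calls of DESeq2 ran from 12 to 159 with libraries left out, and 37 were made with a replicate block, 23 of them among the 48. The replicate numbers do not pair the pools: same-numbered libraries correlated in their deviations at 0.08, -0.19 and -0.03, and under the block 641 genes had an unadjusted p under 0.05. A covariate for Y-linked RNA, chosen after seeing the data, gave 631. Upper quartile scaling split the unadjusted calls into 546 higher and 210 lower. *Adgrb1* ran from -0.78 to -0.36 with libraries left out and from -0.65 to -0.61 otherwise.

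Of 79 genes given with a fold change, 71 kept their direction under each of the 15 alternatives that gave a value. Without Bai1 tm2b/+ replicate 6, *Gria3* was at 0.12, *Grin1* at 0.17, *Nefm* at 0.14, *Tectb* at -0.03 and *Tecta* at -0.09. Without Bai1 tm2b/tm2b replicate 6, *Gria3* was at 0.11, *Mbp* at 0.053, *Otof* at -0.023, *Tectb* at -0.14 and *Tecta* at -0.27. *Gria4* was at -0.00036 without Bai1 tm2b/tm2b replicate 7, and *Tecta* at -0.00078 with the replicate block. With each library left out in turn, *Gria3* reached down to -0.11, *Gria4* up to 0.43, *Grin1* down to -0.50, *Mbp* down to -0.43, *Nefm* down to -0.50, *Otof* up to 0.39, *Tectb* up to 0.30 and *Tecta* up to 0.32. The cause was not tested. The difference between the P7 batches was called for 0 of 11395 genes, for 0 with a pseudocount of 0.5 (2034 at an unadjusted p under 0.05) and for 0 of 14227 with a minimum mean of 1 (2308). With 3 pools a genotype, genes at a few CPM have wide intervals whatever the depth.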

Other observations

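*Cers1* and *Gdf1* share a locus on chromosome 8. All exon bases of *Gdf1* lie in *Cers1* on the same strand. *Cers1*, a ceramide synthase, was at 29.8, 36.4 and 31.2 CPM in the controls and at 0, 29.8 and 34.1 CPM in the mutants, and *Gdf1*, a growth factor gene, was at 0 in all libraries but Bai1 tm2b/tm2b replicates 5 and 7 (28.5 and 2.85 CPM). Their sum was level, at 29.8, 36.4 and 31.2 CPM and at 28.5, 29.8 and 37.0 CPM, so how the counts were divided between the 2 genes is uncertain.

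Of the 923 genes with all mutant libraries above all controls, 471 were highest in Bai1 tm2b/tm2b replicate 5, 235 in replicate 6 and 217 in replicate 7. Of the 743 genes with all mutants below all controls, 413 were highest in Bai1 tm2b/+ replicate 6 and 389 were lowest in Bai1 tm2b/tm2b replicate 5.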
